A study of Homo sapiens with 12 samples.

Results

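The control libraries of 2 prostate cancer cell lines, 22Rv1 and PC3, differed across most of the transcriptome. Of 12 libraries in the series, 4 were chosen by their labels: the 2 libraries of 22Rv1 carrying eGFP alone (22Rv1 eGFP) and the 2 libraries of PC3 carrying eGFP alone (PC3 eGFP). Both lines had been infected with a lentivirus whose MSCV-based vector places eGFP behind an internal ribosome entry site, and eGFP-positive, DAPI-negative living cells were sorted 1 week later, so the controls carry the vector and the sort as well. The other 8 libraries carry wild-type ETV4 (ETV4WT) or mutated ETV4 (ETV4AAA) in the same vector and lines, and they entered the model for its estimate of spread and as a second look at the line difference. Polyadenylated RNA was sequenced, and values below are CPM, a gene's counts per 1000000 of the library's scaled total, given as replicate 1 and replicate 2 of each line. The names 22Rv1 and PC3 stand for the eGFP libraries unless another construct is named.

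22Rv1 was derived from the CWR22 xenograft of a primary prostate tumour and retains a response to androgen, the steroid hormone that drives the luminal, secretory program of the prostate. PC3 was derived from a bone metastasis, grows without androgen and is known to lack alpha-catenin. In the prostate, luminal cells make keratins 8 and 18 and secreted proteases under androgen control, whereas basal cells attach to laminin through integrins. Growth factor receptors signal through the RAS-ERK and PI3K pathways. Each line is a single line grown from 1 tumour, so line, donor and culture history cannot be told apart.

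The 22Rv1 libraries held 45929158 and 45275349 counts and the PC3 libraries 50070614 and 47399414 counts. Over the 12 libraries mitochondrial transcripts made up 8.05% to 9.81% of the counts in 22Rv1 and 4.31% to 5.14% in PC3. The labels do not say whether the replicates were separate cultures, so a p-value here reflects how these libraries vary. Between replicates the variance was 31.0 times that of counting error in 22Rv1 and 3.36 times in PC3 (chi-square per degree of freedom over genes). The line difference also followed base composition. Among expressed protein-coding genes the median log2 of 22Rv1 over PC3 was -0.79 in the fifth of genes with the lowest GC content and 0.63 in the fifth with the highest, and replicate 1 over replicate 2 within 22Rv1 ran from -0.19 to 0.43 across the same groups of genes. List medians close to 0 are therefore given a second time with the GC trend removed, an alternative chosen after seeing the data.

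Of 23238 genes tested, 16482 passed an adjusted p under 0.05 (edgeR's quasi-likelihood test with Benjamini-Hochberg adjustment), 8105 higher in 22Rv1, which is 34.9% of genes tested, and 8377 lower, which is 36.0%. Called below means past that threshold. Because so many genes were called, lists are also counted at a second threshold, an adjusted p under 0.05 with a difference of at least 4-fold: 4264 genes, 18.3% of those tested, were 4-fold higher in 22Rv1 and 3381 genes, 14.5%, were 4-fold lower. With upper-quartile scaling, which moved the median of all genes by 0.34 log2, 59.4% of called genes were higher in 22Rv1, against 49.2% with the scaling used here. The median log2 of all genes tested was 0, and all log2 values are 22Rv1 over PC3. Of the 7645 genes called at 4-fold, 7644 had libraries that did not overlap between the lines. A lack of overlap therefore adds little to a 4-fold call.

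Promoter sequences are shown for 4 genes whose transcripts were absent or low in one line: KLK3 and KLK2, androgen-driven kallikrein proteases, CLDN7, a tight-junction claudin, and IFIT1, an interferon-induced antiviral protein. Each is the 250 bases before the RefSeq start (GRCh38.p14), 5′ to 3′ on the gene's strand. Capitals mark AGAACA, letters of a steroid hormone response half-site, in the kallikreins, CAGGTG, an E-box of the kind that ZEB and SNAI repressors bind, in CLDN7, and GAAANNGAAA, letters of the interferon-stimulated response element, in IFIT1, each searched on both strands.
KLK3: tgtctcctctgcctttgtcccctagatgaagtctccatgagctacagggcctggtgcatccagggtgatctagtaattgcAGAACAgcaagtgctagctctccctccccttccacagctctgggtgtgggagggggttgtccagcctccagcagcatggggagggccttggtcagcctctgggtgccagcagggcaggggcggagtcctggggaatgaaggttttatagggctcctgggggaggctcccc
KLK2: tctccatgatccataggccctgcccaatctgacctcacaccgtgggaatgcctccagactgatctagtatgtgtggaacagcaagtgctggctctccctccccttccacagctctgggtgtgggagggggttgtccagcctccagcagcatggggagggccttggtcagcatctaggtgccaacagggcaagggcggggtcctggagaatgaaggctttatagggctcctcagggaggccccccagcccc
CLDN7: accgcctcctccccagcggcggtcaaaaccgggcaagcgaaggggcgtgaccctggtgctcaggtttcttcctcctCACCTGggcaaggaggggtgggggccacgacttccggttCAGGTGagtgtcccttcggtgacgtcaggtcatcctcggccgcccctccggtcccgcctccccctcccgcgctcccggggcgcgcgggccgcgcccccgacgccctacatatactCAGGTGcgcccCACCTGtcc
IFIT1: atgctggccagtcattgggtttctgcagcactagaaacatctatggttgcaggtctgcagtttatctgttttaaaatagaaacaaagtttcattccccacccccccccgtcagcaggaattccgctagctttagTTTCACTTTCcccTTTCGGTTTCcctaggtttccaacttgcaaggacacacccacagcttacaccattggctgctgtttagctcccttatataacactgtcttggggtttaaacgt
The KLK3 window (chr19:50854665-50854914, plus strand) held 1 match, 170 bases before the start, and the KLK2 window (chr19:50873189-50873438, plus strand) held 0. Before the same letters gcaagtgct that follow the KLK3 match, KLK2 has GGAACA, a near match that the exact search does not count. The CLDN7 window (chr17:7262479-7262728, minus strand, 1 of 2 starts in the table) held 4 matches, 174, 135, 20 and 9 bases before the start. Its start was picked by the number of these matches, most first, so the count of 4 is favoured by that choice. The IFIT1 window (chr10:89392373-89392622, plus strand) held 2 matches, 116 and 103 bases before the start. Of all 35116 windows, 12.4% held AGAACA, 17.5% CAGGTG and 3.02% GAAANNGAAA, and the marked matches do not overlap one another. By gene, AGAACA was found for 3 of 20 members of the androgen-responsive list in the table, against 14.8% of all 27305 genes, CAGGTG for 8 of 13 epithelial junction members, against 20.6%, and GAAANNGAAA for 17 of 24 interferon-stimulated members, against 3.71%. These matches describe the letters of the windows alone.

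The prostate kallikreins and several other androgen-driven genes were read in 22Rv1 and hardly or not at all in PC3. KLK3, which encodes prostate-specific antigen, had 20.5 and 19.8 CPM in 22Rv1 and 0 CPM in both PC3 libraries. KLK2, its neighbour in the kallikrein cluster, had 109 and 94.9 CPM in 22Rv1 and 0 CPM in both PC3 libraries. In bulk RNA, fewer cells that express a gene and less RNA per cell cannot be told apart. Both kallikreins were read in each 22Rv1 library and in neither PC3 library, which puts KLK3 at least 647-fold and KLK2 at least 3275-fold higher in 22Rv1 against a floor of 3 counts over the PC3 group. TMPRSS2, a membrane serine protease that is the usual fusion partner of ERG in prostate tumours, had 128 and 126 CPM in 22Rv1, against 0 CPM in both PC3 libraries and was at least 4061-fold higher. FOLH1, or prostate-specific membrane antigen, had 247 and 281 CPM in 22Rv1, against 0 CPM in both PC3 libraries, and was at least 8473-fold higher. For both genes every read came from 22Rv1. AZGP1, a secreted glycoprotein, had 136 and 133 CPM in 22Rv1 and 0.0201 and 0 CPM in PC3. TMEFF2, a membrane protein, had 89.6 and 95.5 CPM in 22Rv1 and 0.362 and 0.279 CPM in PC3.

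Of 30 members of the androgen-responsive list, all tested, 21 were called higher and 7 lower, and 17 were 4-fold higher and 2 were 4-fold lower, with a median log2 of 2.86. Several members were also read in PC3. FKBP5, a co-chaperone of steroid receptors, had 275 and 307 CPM in 22Rv1, against 109 and 110.3 CPM in PC3 (log2 1.41 ± 0.12). STEAP2, a metalloreductase, had 281 and 319.6 CPM in 22Rv1 and 27.7 and 26.5 CPM in PC3. SLC45A3, or prostein, had 127 and 105 CPM in 22Rv1 and 22.1 and 23.5 CPM in PC3. The libraries did not overlap for any of these, and all were called higher in 22Rv1. Against the list's direction, ABCC4, an efflux transporter, had 3.51 and 3.69 CPM in 22Rv1 and 113 and 111 CPM in PC3 (log2 -4.96 ± 0.17). TRPM8, a cold-sensing channel, had 0.0205 and 0.0206 CPM in 22Rv1 and 4.23 and 4.43 CPM in PC3. The glucocorticoid receptor NR3C1, a steroid-activated transcription factor, was -2.51 on the log2 scale, with 12.5 and 15.3 CPM in 22Rv1 and 79.6 and 78.6 CPM in PC3.

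The prostate lineage factors did not follow one direction. HOXB13, the homeobox factor that marks prostate epithelium, had 715 and 598 CPM in 22Rv1 and 584 and 626 CPM in PC3, with overlapping libraries and a log2 of 0.12 ± 0.17 (adjusted p = 0.561 by edgeR). It was called higher with upper-quartile scaling (log2 0.46) and lower with the GC trend removed (log2 -0.27). FOXA1, a pioneer factor that opens chromatin, had 298 and 295 CPM in 22Rv1 and 166 and 163 CPM in PC3 (log2 0.85 ± 0.12). GATA2, a zinc finger transcription factor, had 126 and 91.8 CPM in 22Rv1, against 0.262 and 0.215 CPM in PC3 and was near absent in PC3, as was GRHL2, a grainyhead factor of epithelial genes, at 75.1 and 81.3 CPM in 22Rv1 and 0.282 and 0.193 CPM in PC3. EHF, an epithelial ETS factor, had 73.2 and 86.5 CPM in 22Rv1 and 84.3 and 77.02 CPM in PC3. SOX4 had 190.5 and 184 CPM in 22Rv1 and 203 and 202 CPM in PC3. Neither was called, although EHF was called higher with the GC trend removed (log2 0.55). SOX9, a progenitor factor, was lower, with 34.03 and 30.7 CPM in 22Rv1 and 95.3 and 95.7 CPM in PC3 (log2 -1.56 ± 0.14). SPDEF, an ETS factor of secretory prostate cells, had 196 and 114 CPM in 22Rv1 and 23.6 and 27.8 CPM in PC3, above both PC3 libraries although its own libraries lay apart. Of 20 members of this list, 9 were called higher and 5 lower, against 34.9% and 36.0% of all genes tested. At 4-fold 6 members (30%) were higher and 3 (15%) lower, against 18.3% and 14.5% of all genes tested. The lower share was thus close to that of all genes. The list median was 0.27, or 0.11 with the GC trend removed.

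Among the keratins of simple epithelium, KRT8 had 575 and 434 CPM in 22Rv1 and 112 and 124 CPM in PC3 (log2 2.10 ± 0.28) and its partner KRT18 had 442 and 376 CPM in 22Rv1 and 297 and 314 CPM in PC3, which was not called (log2 0.42 ± 0.21, edgeR adjusted p = 0.0933). KRT18 was called higher with DESeq2 size factors and with upper-quartile scaling (log2 0.76). KRT19 was lower, at 109 and 75.2 CPM in 22Rv1 and 219 and 243 CPM in PC3, a call that was lost without replicate 2 of 22Rv1 (log2 -1.08), and KRT20, a gut-type keratin, was at 0.0821 and 0.0618 CPM in 22Rv1 and 6.68 and 6.94 CPM in PC3. KRT7 was higher, at 11.2 and 8.63 CPM in 22Rv1 and 0.584 and 0.623 CPM in PC3. Reads of KRT8, KRT18 and KRT19 can be shared with processed pseudogenes, so their levels are less certain.

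**Figure D1:**
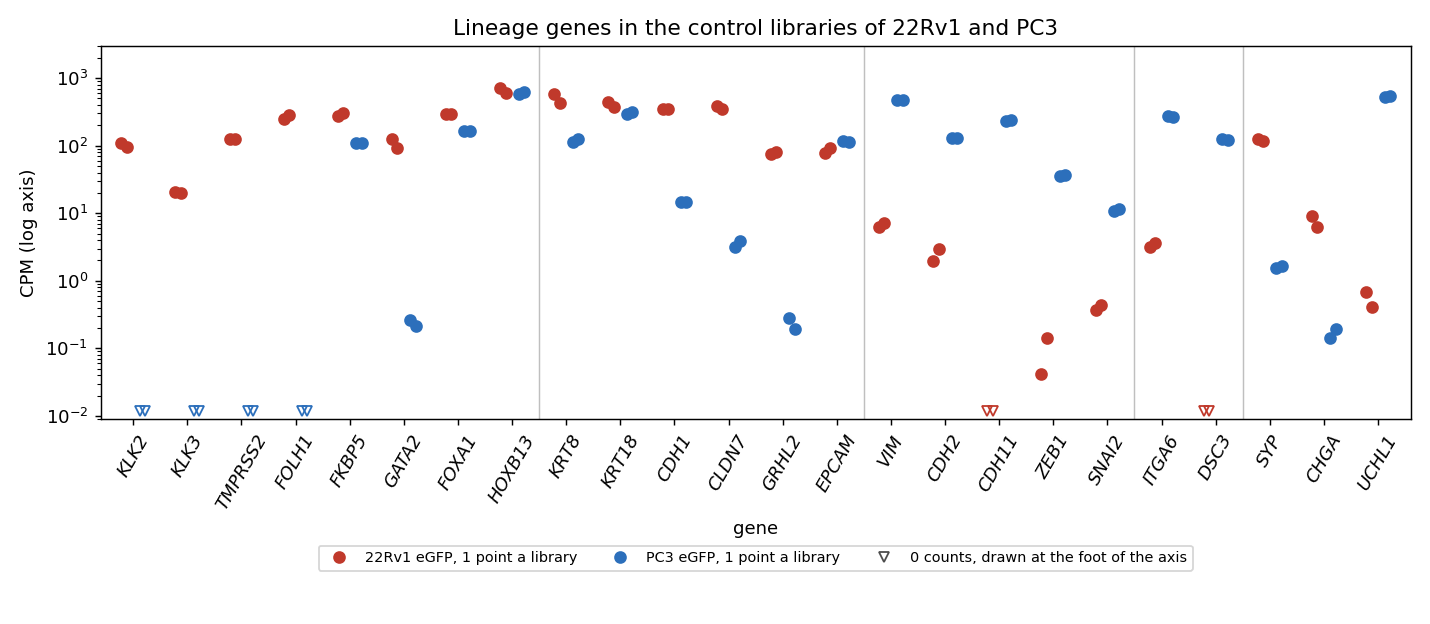
CPM of lineage genes on a log axis, 1 point a library, with 22Rv1 eGFP in red left of PC3 eGFP in blue; grey lines separate androgen and prostate, epithelial, mesenchymal, basal and neuroendocrine genes, and open triangles at the foot mark 0 counts. KLK2, KLK3, TMPRSS2, FOLH1 and GATA2 stood near or above 20 CPM in 22Rv1 and at or near 0 in PC3, VIM, CDH2, CDH11, ITGA6 and UCHL1 were high in PC3, and HOXB13 overlapped.

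Epithelial adhesion genes were higher in 22Rv1, with exceptions. CDH1, which encodes E-cadherin, had 344 and 345 CPM in 22Rv1, against 14.8 and 14.5 CPM in PC3 (log2 4.55 ± 0.13, edgeR adjusted p = 7.73e-11). CLDN7, whose promoter is shown above, had 388 and 346 CPM in 22Rv1 and 3.14 and 3.89 CPM in PC3 (log2 6.71 ± 0.20). The desmosomal plaque genes DSP and JUP were higher too, DSP at 129.7 and 133 CPM in 22Rv1 and 8.62 and 10.1 CPM in PC3 and JUP at 169 and 111 CPM in 22Rv1 and 13.4 and 14.8 CPM in PC3. ST14, or matriptase, a protease of epithelial surfaces, had 85.6 and 57.2 CPM in 22Rv1 and 0.121 and 0.301 CPM in PC3, and the splicing regulator ESRP1 had 118 and 132 CPM in 22Rv1 and 20.1 and 19.8 CPM in PC3. Of 25 members, all tested, 18 were called higher and 4 lower, and 13 were 4-fold higher and 0 were 4-fold lower, with a median log2 of 2.65. EPCAM, a general epithelial surface protein, was lower, at 77.2 and 92.2 CPM in 22Rv1 and 116 and 114 CPM in PC3. Its log2 of -0.44 was no longer called with upper-quartile scaling (log2 -0.10), nor without replicate 1 of 22Rv1 or replicate 1 of PC3. CD24 was lower at 29.03 and 33.2 CPM in 22Rv1 and 103 and 100.6 CPM in PC3. CDH3, or P-cadherin, had 88.2 and 76.3 CPM in 22Rv1 and 135 and 149.8 CPM in PC3 (log2 -0.79 ± 0.19). CTNNB1, which encodes beta-catenin, had 404 and 445 CPM in 22Rv1 and 379 and 374 CPM in PC3 and was not called, but was called higher with upper-quartile scaling (log2 0.51) and with the GC trend removed (log2 0.64). Both lines therefore carried epithelial transcripts by EPCAM, KRT8 and KRT18.

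Mesenchymal genes ran the other way. VIM, the intermediate filament vimentin, had 6.24 and 7.23 CPM in 22Rv1, against 481 and 473 CPM in PC3 (log2 -6.15 ± 0.16, edgeR adjusted p = 4.54e-11). CDH2, or N-cadherin, had 1.95 and 2.92 CPM in 22Rv1 and 130.5 and 128 CPM in PC3. CDH11, a mesenchymal cadherin, had 0 CPM in both 22Rv1 libraries, against 232 and 242 CPM in PC3, at least 7686-fold lower in 22Rv1. The repressors of E-cadherin were also low in 22Rv1: ZEB1 had 0.0410 and 0.144 CPM in 22Rv1 and 35.7 and 36.8 CPM in PC3. SNAI2 had 0.369 and 0.432 CPM in 22Rv1 and 10.7 and 11.6 CPM in PC3. None of these genes overlapped between the lines, as held for 7644 of all 7645 genes called at 4-fold. SPARC, a matrix glycoprotein, had 0.0205 and 0 CPM in 22Rv1 and 70.1 and 68.8 CPM in PC3. FSTL1, a secreted follistatin-like protein, had 3.34 and 3.89 CPM in 22Rv1 and 588 and 580.4 CPM in PC3. Of 28 members, all tested, 19 were called lower in 22Rv1 and 6 higher, and 15 were 4-fold lower and 4 were 4-fold higher, with a median log2 of -2.26. CD44, a hyaluronan receptor, had 120.0 and 129 CPM in 22Rv1 and 401 and 395 CPM in PC3 (log2 -1.68 ± 0.11). FN1, fibronectin, had 26.5 and 25.3 CPM in 22Rv1 and 35.3 and 36.5 CPM in PC3, a difference of -0.47 on the log2 scale that turned to 0.11 with the GC trend removed and lost its call with upper-quartile scaling (log2 -0.13). The 4 members that were 4-fold higher in 22Rv1 were TAGLN, COL5A1, PRRX1 and TGFBI, and TAGLN, an actin-binding protein, was the highest of them at 7.59 and 5.81 CPM in 22Rv1 and 0.584 and 0.795 CPM in PC3. TWIST1 was also higher, at 10.1 and 9.33 CPM in 22Rv1 and 5.25 and 5.39 CPM in PC3.

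Basal adhesion genes were lower in 22Rv1, but the defining basal factors were near 0 in both lines. ITGA6, the integrin chain that binds laminin in basal cells, had 3.14 and 3.64 CPM in 22Rv1, against 273 and 267 CPM in PC3 (log2 -6.31 ± 0.17). LAMA3, a chain of laminin-332, had 3.34 and 3.13 CPM in 22Rv1 and 115 and 116 CPM in PC3. SERPINB5, or maspin, had 1.42 and 2.04 CPM in 22Rv1 and 136 and 133 CPM in PC3. All 3 were called lower. DSC3, a desmocollin of stratified epithelium, had 0 CPM in both 22Rv1 libraries and 127 and 121 CPM in PC3, at least 4015-fold lower in 22Rv1. The libraries of the lines lay far apart for each of these adhesion genes. By contrast KRT5 had 0 CPM in both 22Rv1 libraries and 0 and 0.0430 CPM in PC3. TP63 had 0.123 and 0 CPM in 22Rv1 and 0.322 and 0.258 CPM in PC3, a difference whose call was lost without replicate 2 of 22Rv1, without replicate 1 of PC3, and with the GC trend removed (log2 -1.60). KRT14 had 0 and 0.0206 CPM in 22Rv1 and 0 CPM in both PC3 libraries. These defining basal markers were at or near 0 in every library. Of 22 basal and squamous members 17 passed the filter on low counts, 14 of them 4-fold lower and 2 were 4-fold higher. The 2 higher members were SFN, or 14-3-3 sigma, a cell cycle checkpoint protein, at 566 and 376 CPM in 22Rv1 and 105 and 128 CPM in PC3 and NGFR, a neurotrophin receptor, at 0.615 and 0.329 CPM in 22Rv1 and 0.0201 and 0 CPM in PC3. Without replicate 1 of 22Rv1, or without replicate 1 of PC3, 1 member was 4-fold higher.

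Neuroendocrine genes split between the lines. SYP, or synaptophysin, a vesicle protein, had 124 and 117 CPM in 22Rv1, against 1.57 and 1.65 CPM in PC3 (log2 6.22 ± 0.23), and the granule genes CHGA at 9.03 and 6.24 CPM in 22Rv1 and 0.141 and 0.193 CPM in PC3, CHGB at 27.5 and 29.9 CPM in 22Rv1 and 0.101 and 0.172 CPM in PC3 and SCG3 at 60.8 and 73.4 CPM in 22Rv1 and 0.0403 and 0.0860 CPM in PC3 were higher in 22Rv1 as well. DDC, the decarboxylase of dopamine and serotonin synthesis, had 36.4 and 35.2 CPM in 22Rv1 and 0.181 and 0.107 CPM in PC3. ENO2, the neuronal enolase, had 346 and 313 CPM in 22Rv1 and 40.4 and 45.3 CPM in PC3. All of these were called higher in 22Rv1. In the other direction UCHL1, a neuronal deubiquitinase, had 0.677 and 0.412 CPM in 22Rv1, against 524 and 545 CPM in PC3 (log2 -9.93 ± 0.21). SYT1 had 1.03 and 1.03 CPM in 22Rv1 and 46.1 and 42.6 CPM in PC3. POU3F2, or BRN2, had 5.27 and 5.66 CPM in 22Rv1 and 41.97 and 39.6 CPM in PC3. The lines did not overlap for these genes, as for nearly all 4-fold calls. FOXA2 had 0.164 and 0.0823 CPM in 22Rv1 and 12.1 and 13.6 CPM in PC3. The factors INSM1 and NEUROD1 were at or near 0 in both lines. Of 22 members 19 passed the filter, and 9 were 4-fold higher and 5 were 4-fold lower. These were 47.4% and 26.3% of members tested, against 18.3% and 14.5% of all genes tested.

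Position genes of the HOX clusters and genes of liver and gut also differed. Of 39 HOX genes 35 were tested, and 21 were 4-fold higher in 22Rv1 and 7 were 4-fold lower. The clusters had different directions. HOXC10 at 21.4 and 24.9 CPM in 22Rv1 and 0.403 and 0.537 CPM in PC3, HOXC6 at 15.3 and 13.5 CPM in 22Rv1 and 0.342 and 0.322 CPM in PC3 and HOXB7 at 11.2 and 10.97 CPM in 22Rv1 and 0.282 and 0.107 CPM in PC3 were higher in 22Rv1, and HOXC12 had 43.02 and 39.7 CPM in 22Rv1 and 0 and 0.0215 CPM in PC3. HOXA13, the most distal HOXA gene, was lower at 10.2 and 10.8 CPM in 22Rv1 and 56.3 and 53.6 CPM in PC3. All 6 HOXD genes tested were lower in 22Rv1, with HOXD13 at 0.0205 and 0.0618 CPM in 22Rv1 and 1.95 and 1.70 CPM in PC3 and HOXD10 at 0 CPM in both 22Rv1 libraries and 1.03 and 0.989 CPM in PC3. Among 27 liver and gut genes 20 were tested, with 14 that were 4-fold higher in 22Rv1 and 5 that were 4-fold lower, or 3 without replicate 1 of 22Rv1. ALB, serum albumin, had 95.4 and 116 CPM in 22Rv1, against 0.121 and 0.236 CPM in PC3. VIL1, the brush-border protein villin, had 117 and 104 CPM in 22Rv1 and 0.0201 and 0.0215 CPM in PC3. CDH17, a gut cadherin, had 26.6 and 29.9 CPM in 22Rv1 and 0 and 0.0645 CPM in PC3. The nuclear receptor HNF4G had 17.3 and 19.8 CPM in 22Rv1 and 19.7 and 18.2 CPM in PC3 with overlapping libraries, and was called higher with the GC trend removed (log2 0.73).

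The largest differences were ranked among called protein-coding genes with at least 20 CPM in one line and no overlap, leaving out chromosome Y, whose genes are not reported here. Among the 10 highest in 22Rv1 were MAGEA4, KLK4, FOLH1, SRRM4, GLYATL1, BEX1, KLK1, TMPRSS2 and CHRNA2. MAGEA4, a cancer-testis antigen, had 319 and 309 CPM in 22Rv1, against 0 CPM in both PC3 libraries and was at least 10071-fold higher. SRRM4, a neural splicing factor, had 182 and 179.6 CPM in 22Rv1 and 0 CPM in both PC3 libraries. The 10 lowest in 22Rv1 were CDH11, PXDN, KRT75, DSC3, ETS1, MMP13, HAPLN1, FCGR2A, APOBEC3C and CSMD2. ETS1, a founding member of the ETS family, had 0 CPM in both 22Rv1 libraries, against 119 and 114 CPM in PC3, at least 3777-fold lower in 22Rv1. PXDN, a matrix peroxidase, had 0 CPM in both 22Rv1 libraries and 223 and 232 CPM in PC3. MMP13, a collagenase, had 0 CPM in both 22Rv1 libraries and 85.9 and 81.8 CPM in PC3. APOBEC3C, an antiviral cytidine deaminase, had 0.0205 and 0 CPM in 22Rv1 and 327 and 326 CPM in PC3.

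**Figure D2:**
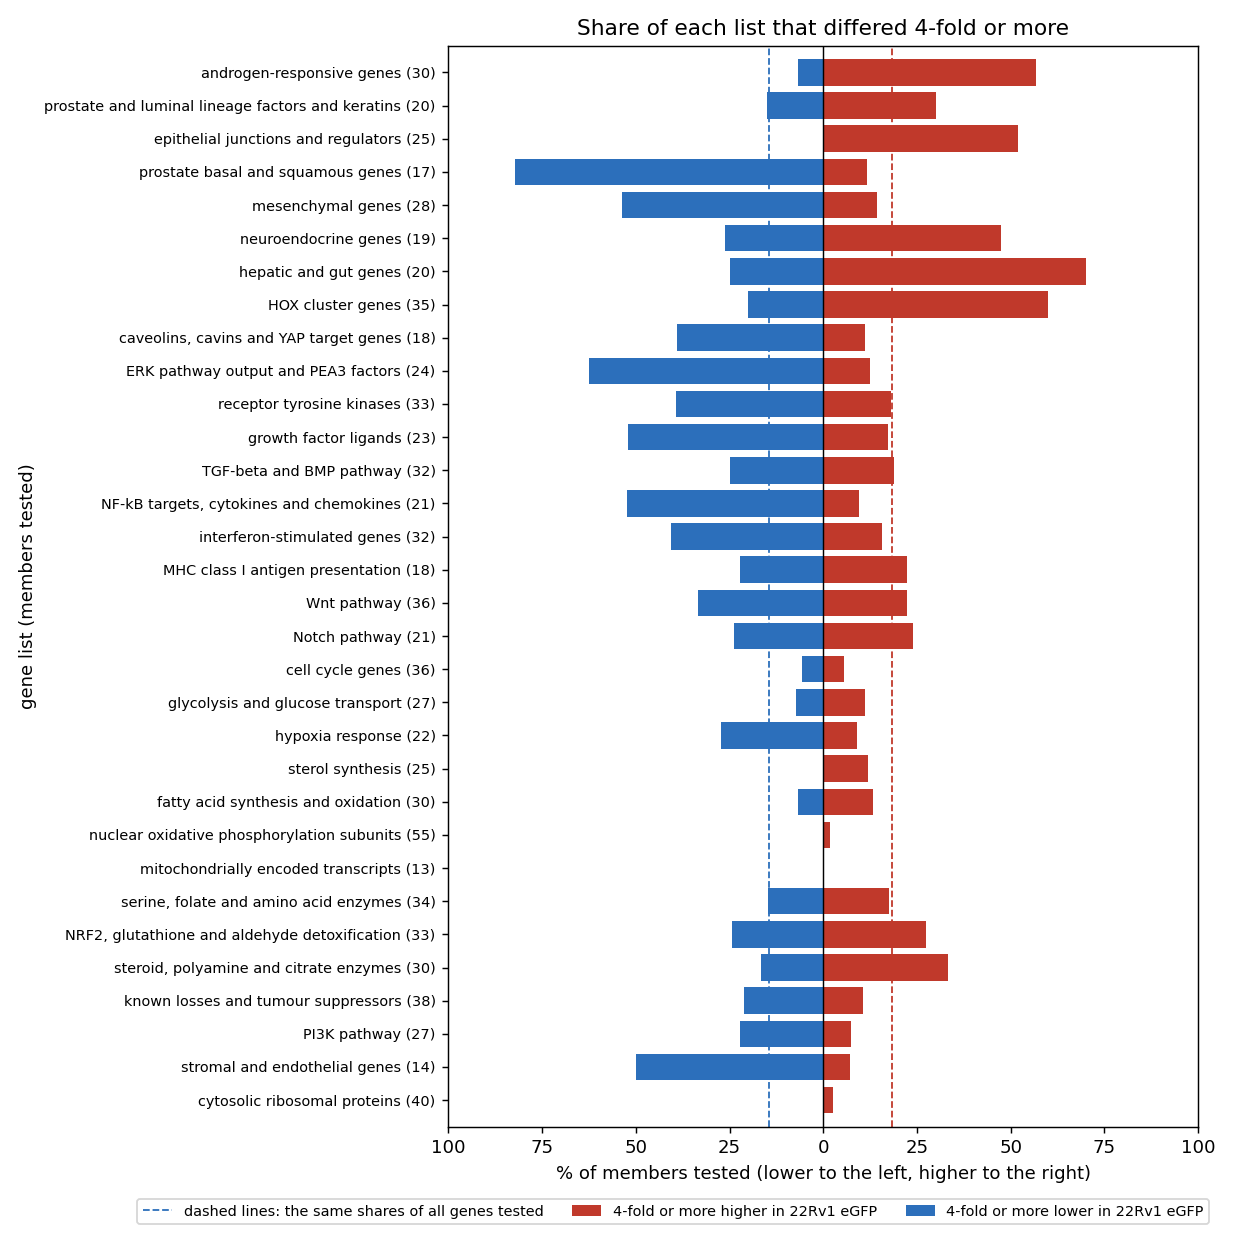
Percent of the tested members of each list that were 4-fold higher (red, right) or 4-fold lower (blue, left) in 22Rv1 eGFP than in PC3 eGFP; dashed lines mark 18.3% and 14.5%, the same shares of all genes tested. Basal, mesenchymal, ERK output, ligand and NF-kB lists reach far to the left, androgen-responsive, epithelial, liver and gut and HOX lists far to the right, and the cell cycle, oxidative phosphorylation and ribosomal bars end short of both dashed lines.

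Receptor tyrosine kinases were set differently in each line. MET, the receptor of hepatocyte growth factor, had 11.1 and 12.9 CPM in 22Rv1, against 519 and 507 CPM in PC3 (log2 -5.42 ± 0.17, edgeR adjusted p = 1.33e-10), whereas its ligand HGF had 61.9 and 69.5 CPM in 22Rv1, against 0.403 and 0.430 CPM in PC3 (log2 7.30 ± 0.21). ERBB3, a kinase-impaired partner of ERBB2, had 309 and 311 CPM in 22Rv1, against 5.39 and 5.16 CPM in PC3 (log2 5.87 ± 0.17), and ERBB2 itself had 94.6 and 72.2 CPM in 22Rv1 and 21.7 and 23.1 CPM in PC3. EGFR was read in both lines, at 43.5 and 41.6 CPM in 22Rv1 and 55.8 and 56.97 CPM in PC3, a difference of -0.41 on the log2 scale. That call was lost with DESeq2 size factors, with upper-quartile scaling (log2 -0.07), and without replicate 2 of 22Rv1 or either PC3 library. IGF1R, the insulin-like growth factor receptor, had 76.6 and 67.6 CPM in 22Rv1 and 11.7 and 11.003 CPM in PC3. FGFR3 had 44.1 and 32.2 CPM in 22Rv1 and 0.382 and 0.473 CPM in PC3. DDR1, a collagen receptor of epithelia, had 364 and 280.3 CPM in 22Rv1 and 50.4 and 54.3 CPM in PC3. IGF1R, FGFR3 and DDR1 were called higher in 22Rv1, as were ERBB3 and ERBB2. Receptors higher in PC3 included EPHA2 at 15.4 and 10.95 CPM in 22Rv1 and 194 and 212 CPM in PC3, ROR1 at 2.09 and 1.75 CPM in 22Rv1 and 51.9 and 51.7 CPM in PC3, EPHB2 at 1.85 and 1.40 CPM in 22Rv1 and 50.2 and 54.7 CPM in PC3, PDGFRA at 0.144 and 0.165 CPM in 22Rv1 and 25.2 and 25.8 CPM in PC3 and AXL at 0.0205 and 0 CPM in 22Rv1 and 10.6 and 10.4 CPM in PC3. Per kilobase of exon, ERBB3 held 34.3 CPM and MET 1.71 CPM in 22Rv1, and ERBB3 held 0.584 CPM and MET 72.8 CPM in PC3. Of 33 receptors, all tested, 8 were called higher and 20 lower, and 6 were 4-fold higher and 13 were 4-fold lower. The 4-fold shares were 18.2% higher and 39.4% lower, against 18.3% and 14.5% of all genes tested. Only the lower share therefore stood apart from that of all genes. The median log2 was -0.91, or -0.79 with the GC trend removed.

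Growth factor ligands were mostly higher in PC3. Of 26 ligands 23 passed the filter, and 12 were 4-fold lower in 22Rv1 and 4 were 4-fold higher, with a median log2 of -2.30. TGFA, a ligand of EGFR, had 1.95 and 2.18 CPM in 22Rv1, against 35.3 and 36.96 CPM in PC3 (log2 -4.13 ± 0.16), and the other EGFR ligands AREG at 0.615 and 1.21 CPM in 22Rv1 and 13.3 and 13.8 CPM in PC3 and HBEGF at 3.12 and 2.74 CPM in 22Rv1 and 14.8 and 14.01 CPM in PC3 were lower in 22Rv1 as well. FGF2 had 0.0410 and 0.350 CPM in 22Rv1 and 42.1 and 41.004 CPM in PC3. VEGFC, a lymphatic growth factor, had 1.52 and 2.04 CPM in 22Rv1 and 114 and 112 CPM in PC3. FGFBP1, a carrier that releases fibroblast growth factors, had 0 CPM in both 22Rv1 libraries and 24.8 and 28.2 CPM in PC3, at least 857-fold lower in 22Rv1. Besides HGF, the 4-fold higher ligands in 22Rv1 were PDGFB at 26.8 and 20.2 CPM in 22Rv1 and 4.17 and 4.34 CPM in PC3, GAS6, the ligand of AXL, at 5.44 and 4.24 CPM in 22Rv1 and 0.322 and 0.258 CPM in PC3 and IGF1 at 0.533 and 0.473 CPM in 22Rv1 and 0 CPM in both PC3 libraries.

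Transcripts that ERK signalling induces were mostly lower in 22Rv1. The phosphatase DUSP6, a feedback inhibitor of ERK, had 12.7 and 14.4 CPM in 22Rv1, against 75.5 and 73.1 CPM in PC3 (log2 -2.46 ± 0.12). DUSP5 had 1.19 and 1.07 CPM in 22Rv1 and 52.4 and 53.1 CPM in PC3. SPRY4, a Sprouty inhibitor of receptor signalling, had 11.9 and 10.3 CPM in 22Rv1 and 205 and 209 CPM in PC3. SPRED1 had 23.9 and 25.3 CPM in 22Rv1 and 134 and 131 CPM in PC3. Each of these feedback genes was called lower. The PEA3 factors, the ETS subfamily of ETV4, were lower too. ETV5 had 12.6 and 13.1 CPM in 22Rv1 and 167 and 168 CPM in PC3 (log2 -3.71 ± 0.14). ETV4 had 31.2 and 24.9 CPM in 22Rv1 and 116 and 126 CPM in PC3 (log2 -2.11 ± 0.35, edgeR adjusted p = 0.00016). ETV1 had 23.4 and 24.7 CPM in 22Rv1 and 80.04 and 77.8 CPM in PC3 (log2 -1.72 ± 0.13). FOSL1, an AP-1 subunit, was nearly absent in 22Rv1, at 0.0821 and 0.226 CPM in 22Rv1, against 274 and 297 CPM in PC3 (log2 -10.83 ± 0.38). Of 24 members, all tested, 19 were called lower and 4 higher, and 15 were 4-fold lower and 3 were 4-fold higher, with a median log2 of -2.44. The 3 exceptions were large: the immediate early factors EGR1 at 146 and 132 CPM in 22Rv1, against 0.242 and 0.172 CPM in PC3 and FOS at 115 and 101.2 CPM in 22Rv1, against 0.242 and 0.387 CPM in PC3, and CCND1, or cyclin D1, at 1547 and 1526 CPM in 22Rv1 and 331 and 319 CPM in PC3. MYC, by contrast, had 161 and 140.5 CPM in 22Rv1 and 581 and 623 CPM in PC3 (log2 -2.00 ± 0.15).

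Genes of the YAP and TAZ pathway, which respond to cell adhesion and tension, were mostly lower in 22Rv1. WWTR1, which encodes TAZ, had 9.72 and 9.10 CPM in 22Rv1, against 902 and 873 CPM in PC3 (log2 -6.56 ± 0.15, edgeR adjusted p = 2.04e-11). YAP1 had 50.5 and 51.5 CPM in 22Rv1 and 195 and 193 CPM in PC3 (log2 -1.93 ± 0.13). Their DNA-binding partner TEAD1 had 42.5 and 40.8 CPM in 22Rv1 and 271 and 269.7 CPM in PC3. All 3 factors were called lower. CAV1, the caveolar coat protein, had 2.32 and 3.85 CPM in 22Rv1, against 182 and 182 CPM in PC3. CAV2 had 0.369 and 0.556 CPM in 22Rv1 and 40.1 and 38.4 CPM in PC3. By contrast, CAVIN1, a coat protein needed for caveolae, was higher, at 11.5 and 9.66 CPM in 22Rv1 and 0.141 and 0.172 CPM in PC3. The target genes CYR61 at 6.71 and 5.97 CPM in 22Rv1 and 34.9 and 34.6 CPM in PC3 and CTGF at 17.8 and 17.7 CPM in 22Rv1 and 40.6 and 37.99 CPM in PC3 were lower in 22Rv1. Of 21 members 18 were tested, and 14 were called lower and 3 higher, of which 7 were 4-fold lower and 2 were 4-fold higher. The 2 were CAVIN1 and NUAK2, a stress kinase, at 23.5 and 21.02 CPM in 22Rv1 and 0.0604 and 0.365 CPM in PC3.

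**Figure D3:**
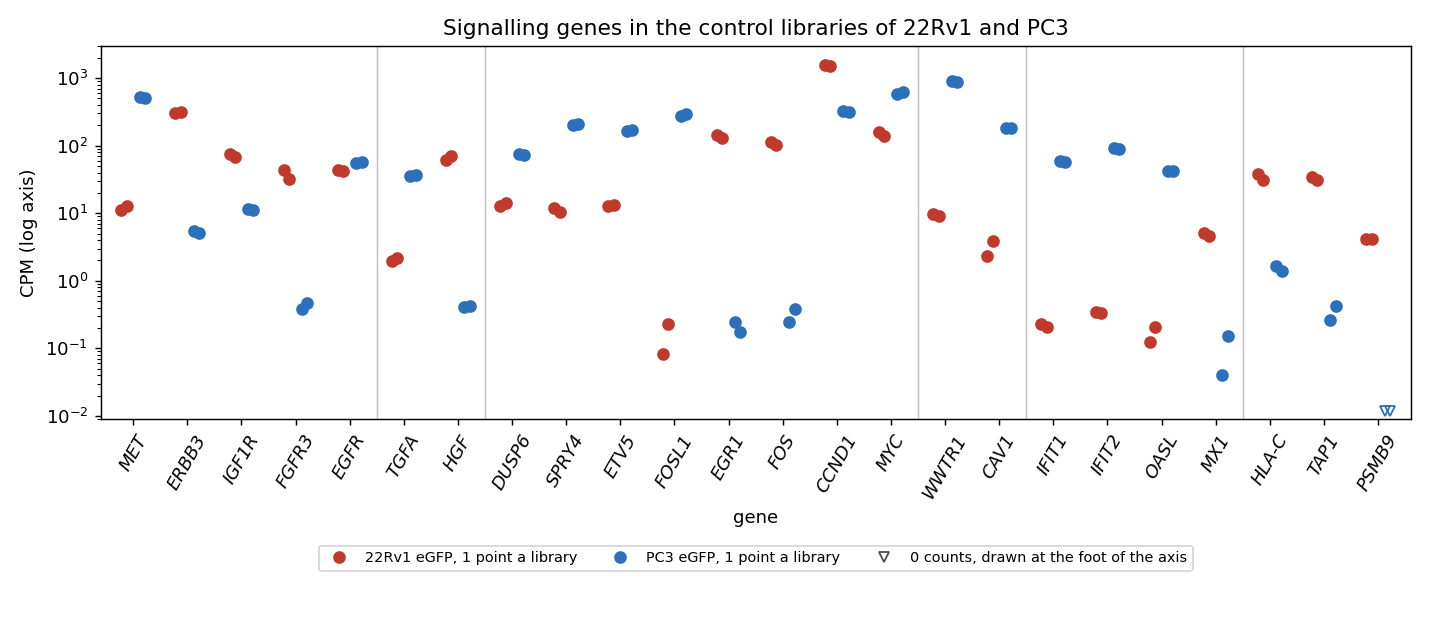
CPM of signalling genes on a log axis, 1 point a library, with 22Rv1 eGFP in red left of PC3 eGFP in blue; grey lines separate receptors, ligands, ERK output and MYC, TAZ and caveolin, interferon and antigen presentation genes. MET, TGFA, DUSP6, SPRY4, ETV5, FOSL1, WWTR1 and IFIT1 were low in 22Rv1, ERBB3, HGF, EGR1, FOS, HLA-C and TAP1 were low in PC3, and EGFR lay close in both.

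Interferon-stimulated genes differed in both directions. Of members tested 15.6% were 4-fold higher and 40.6% 4-fold lower, against 18.3% and 14.5% of all genes tested. IFIT1, whose promoter is shown above, had 0.226 and 0.206 CPM in 22Rv1, against 58.8 and 57.2 CPM in PC3 (log2 -8.05 ± 0.25, edgeR adjusted p = 1.23e-10). IFIT2 had 0.349 and 0.329 CPM in 22Rv1 and 92.7 and 88.4 CPM in PC3. IFIT3 had 0.164 and 0.288 CPM in 22Rv1 and 42.997 and 42.9 CPM in PC3. The PC3 libraries were far above those of 22Rv1 for all 3 IFIT genes. The oligoadenylate synthetase-like gene OASL had 0.123 and 0.206 CPM in 22Rv1 and 41.8 and 42.4 CPM in PC3. OAS1 had 0.185 and 0.371 CPM in 22Rv1 and 13.1 and 13.2 CPM in PC3. These genes stood at or under 0.371 CPM in 22Rv1. Others went the opposite way: IFITM3, an inhibitor of viral entry, had 26.8 and 20.2 CPM in 22Rv1 and 0.705 and 0.731 CPM in PC3. MX1, a dynamin-like antiviral GTPase, had 5.15 and 4.53 CPM in 22Rv1 and 0.0403 and 0.150 CPM in PC3. Both were called higher. ISG15 had 64.7 and 29.3 CPM in 22Rv1 and 18.7 and 23.5 CPM in PC3 and was not called, with its 22Rv1 libraries far apart. With upper-quartile scaling it was called higher (log2 1.49). Of 33 members 32 were tested, with 16 called lower and 11 higher, of which 13 were 4-fold lower and 5 were 4-fold higher, and a median log2 of -0.51, the same with the GC trend removed. STAT2, which carries the interferon signal, had 60.5 and 59.4 CPM in 22Rv1 and 47.9 and 50.5 CPM in PC3, a difference that was not called once any 1 library was left out.

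Antigen presentation genes differed in both directions. Of members tested 22.2% were 4-fold higher and 22.2% 4-fold lower, against 18.3% and 14.5% of all genes tested. HLA-C had 38.5 and 30.6 CPM in 22Rv1, against 1.65 and 1.42 CPM in PC3 (log2 4.49 ± 0.23). HLA-B had 4.64 and 4.28 CPM in 22Rv1 and 0.584 and 0.731 CPM in PC3. HLA transcripts differ between people, so reads that depart from the reference may be lost or assigned to a related gene. The peptide transporter TAP1 had 34.7 and 31.1 CPM in 22Rv1, against 0.262 and 0.430 CPM in PC3 and the immunoproteasome subunit PSMB9, its neighbour, had 4.23 and 4.20 CPM in 22Rv1, against 0 CPM in both PC3 libraries, so both were low or absent in PC3. B2M, the shared light chain, had 230.0 and 257 CPM in 22Rv1 and 435 and 429 CPM in PC3 (log2 -0.83 ± 0.16), which shrank to -0.12 and was not called with the GC trend removed. Of 18 members, all tested, 4 were 4-fold higher and 4 were 4-fold lower in 22Rv1.

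Cytokine and NF-kB target genes were mostly lower in 22Rv1, at 11 of 21 tested members 4-fold lower and 2 that were 4-fold higher, out of 28 on the list. With a floor of 1 CPM in 2 libraries 7 were 4-fold lower. IL18, an inflammasome cytokine, had 0.226 and 0.0618 CPM in 22Rv1, against 66.1 and 66.2 CPM in PC3 (log2 -8.82 ± 0.35). ICAM1, a leukocyte adhesion molecule, had 1.52 and 1.19 CPM in 22Rv1 and 58.8 and 63.6 CPM in PC3. LIF had 1.17 and 0.968 CPM in 22Rv1 and 20.3 and 20.4 CPM in PC3. CXCL8, or interleukin 8, had 0 CPM in both 22Rv1 libraries and 4.47 and 4.08 CPM in PC3. These cytokine and adhesion genes were called lower. The 2 higher members were TRAF1, a signalling adaptor, at 6.46 and 6.48 CPM in 22Rv1 and 0.825 and 1.10 CPM in PC3 and PTGS2, a prostaglandin synthase, at 0.944 and 0.803 CPM in 22Rv1 and 0.0403 and 0 CPM in PC3. NFKB1 had 22.3 and 23.1 CPM in 22Rv1 and 95.6 and 93.4 CPM in PC3, while the inhibitor NFKBIA was higher, at 61.01 and 56.4 CPM in 22Rv1 and 19.3 and 20.6 CPM in PC3. IL6 and CXCL1 were near 0 in both lines and were not tested.

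The TGF-beta and BMP list held members that differed in both directions. TGFBR2, the type II receptor, had 1.95 and 2.68 CPM in 22Rv1, against 70.5 and 69.7 CPM in PC3 (log2 -4.92 ± 0.19). TGFB2 had 0.328 and 0.124 CPM in 22Rv1 and 17.7 and 18.7 CPM in PC3. LTBP1, which stores the ligand in the matrix, had 13.9 and 14.02 CPM in 22Rv1 and 323 and 313 CPM in PC3. All 3 were called lower. ID3, a BMP target, was higher, at 267 and 184 CPM in 22Rv1 and 7.93 and 9.48 CPM in PC3 (log2 4.70 ± 0.34), as were ID1 at 68.2 and 54.1 CPM in 22Rv1 and 12.9 and 14.8 CPM in PC3 and the inhibitor SMAD7 at 21.3 and 19.1 CPM in 22Rv1 and 3.38 and 3.09 CPM in PC3. SMAD4, the common mediator, had 52.3 and 57.7 CPM in 22Rv1 and 53.7 and 52.9 CPM in PC3. SMAD2 had 73.3 and 83.7 CPM in 22Rv1 and 83.7 and 80.6 CPM in PC3. The libraries of the lines overlapped for both. With the GC trend removed SMAD4 and SMAD2 were called higher (log2 0.74 and 0.66), and SMAD4 also with upper-quartile scaling (log2 0.39). Of 33 members 32 were tested, with 6 that were 4-fold higher and 8 that were 4-fold lower. These were 18.8% and 25% of members tested, against 18.3% and 14.5% of all genes tested, so the higher share was close to that of all genes. The median log2 was -0.66, or -0.17 with the GC trend removed.

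Wnt and Notch genes had members far apart in both directions. In the Wnt list (36 of 37 tested) 8 (22.2%) were 4-fold higher in 22Rv1 and 12 (33.3%) were 4-fold lower. Among all genes tested these shares were 18.3% and 14.5%. RNF43, a ligase that removes Frizzled receptors, had 56.3 and 50.1 CPM in 22Rv1, against 0.262 and 0.451 CPM in PC3. LEF1, a partner of beta-catenin, had 26.4 and 27.7 CPM in 22Rv1 and 3.06 and 3.27 CPM in PC3, and both were called higher. The antagonist DKK1 had 10.4 and 10.7 CPM in 22Rv1, against 211 and 205 CPM in PC3. The receptor FZD4 had 8.94 and 9.43 CPM in 22Rv1 and 159 and 148 CPM in PC3. LGR4 had 10.4 and 12.1 CPM in 22Rv1 and 136 and 135 CPM in PC3. These were called lower, and so was the ligand WNT5A with 1.05 and 0.926 CPM in 22Rv1 and 24.2 and 22.2 CPM in PC3. In the Notch list (21 of 21 tested) 5 (23.8%) were 4-fold higher and 5 (23.8%) were 4-fold lower. The ligand JAG1 had 0.0821 and 0.103 CPM in 22Rv1, against 82.4 and 79.04 CPM in PC3 (log2 -9.73 ± 0.27) and the target HEY1 had 1.83 and 2.31 CPM in 22Rv1 and 74.3 and 78.2 CPM in PC3, both called lower. The receptor NOTCH3 was higher, at 32.7 and 22.9 CPM in 22Rv1 and 0.765 and 1.16 CPM in PC3. NOTCH2 was lower, at 38.5 and 37.3 CPM in 22Rv1 and 235 and 249 CPM in PC3. HES6 was higher, at 25.1 and 15.1 CPM in 22Rv1 and 1.55 and 1.63 CPM in PC3. Without replicate 1 of 22Rv1 the count of 4-fold higher Notch genes was 3. The Notch median was 0.23, and -0.39 with the GC trend removed.

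PI3K pathway genes were called lower in 22Rv1 for 14 members and higher for 5. Among all genes tested 36.0% were called lower and 34.9% higher. Of 28 members 27 were tested, with 2 that were 4-fold higher and 6 that were 4-fold lower. These were 7.41% and 22.2% of members tested, against 18.3% and 14.5% of all genes tested. The median log2 was -0.56, or -0.51 with the GC trend removed and -0.22 with upper-quartile scaling. PIK3CA, the catalytic subunit, had 11.4 and 12.9 CPM in 22Rv1 and 86.1 and 87.4 CPM in PC3 (log2 -2.84 ± 0.17). AKT1 had 201 and 141 CPM in 22Rv1 and 186 and 213 CPM in PC3 and was not called, but was called lower with the GC trend removed (log2 -0.84). The phosphatase INPP4B, which acts on a product of PI3K, had 3.53 and 5.003 CPM in 22Rv1, against 56.6 and 52.4 CPM in PC3. TRIB2, a pseudokinase, had 0.0821 and 0.0206 CPM in 22Rv1, against 59.2 and 60.5 CPM in PC3. Both were called lower. IRS2, an adaptor of insulin signalling, was higher, at 53.6 and 47.1 CPM in 22Rv1 and 10.1 and 10.2 CPM in PC3 and TRIB1 at 254 and 257 CPM in 22Rv1 and 29.8 and 28.3 CPM in PC3.

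Cell cycle genes were called in both directions, as were genes in general, 34.9% of all genes tested higher and 36.0% lower. At 4-fold 5.56% of cell cycle members were higher and 5.56% lower, against 18.3% and 14.5% of all genes tested. Of 36 members, all tested, 15 were called higher and 12 lower, but 2 were 4-fold higher and 2 were 4-fold lower, with a median log2 of 0.21, or 0.20 with the GC trend removed. The 4 large differences were in G1 regulators: CCND1, given above, and E2F2 at 126 and 110.1 CPM in 22Rv1 and 18.1 and 18.3 CPM in PC3 were higher in 22Rv1, and CDK6, a kinase partner of D cyclins, at 13.1 and 13.999 CPM in 22Rv1 and 169 and 169 CPM in PC3 and CCND2 at 0.0205 and 0 CPM in 22Rv1 and 1.89 and 1.74 CPM in PC3 were lower. MKI67, a proliferation marker, had 234 and 239 CPM in 22Rv1 and 371 and 369 CPM in PC3 (log2 -0.65 ± 0.15), a call lost with upper-quartile scaling (log2 -0.30). PCNA, the replication clamp, had 329.5 and 346 CPM in 22Rv1 and 253 and 252 CPM in PC3 (log2 0.42 ± 0.12).

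Glycolytic genes were called in both directions, as were genes in general, 34.9% of all genes tested higher and 36.0% lower. At 4-fold 11.1% of glycolytic members were higher and 7.41% lower, against 18.3% and 14.5% of all genes tested. In glycolysis (27 of 27 tested) 8 were called higher and 10 lower in 22Rv1, and 3 were 4-fold higher and 2 were 4-fold lower. The phosphofructokinase isoforms differed in opposite directions: PFKP, the platelet form, had 3.02 and 2.02 CPM in 22Rv1, against 164 and 174 CPM in PC3 (log2 -6.07 ± 0.30, edgeR adjusted p = 4.42e-09). By contrast, PFKM, the muscle form, had 248 and 245 CPM in 22Rv1 and 119 and 121 CPM in PC3 (log2 1.04 ± 0.12). HK2, a hexokinase induced in tumours, had 129.5 and 118 CPM in 22Rv1 and 350.3 and 366 CPM in PC3. LDHA, lactate dehydrogenase A, had 1777 and 2053 CPM in 22Rv1 and 3743 and 3696 CPM in PC3 (log2 -0.96 ± 0.14). Hexokinase and lactate dehydrogenase were called lower. The lactate carrier SLC16A1, or MCT1, had 63.8 and 73.7 CPM in 22Rv1 and 363 and 356 CPM in PC3. ALDOC, the brain aldolase, was higher, at 179 and 158 CPM in 22Rv1 and 15.7 and 17.9 CPM in PC3. GAPDH had 5855 and 5359 CPM in 22Rv1 and 2557 and 2640.1 CPM in PC3 (log2 1.11 ± 0.19), with reads that can be shared with many pseudogenes. PGK1 had 1447 and 1517 CPM in 22Rv1 and 1483 and 1434 CPM in PC3, with overlapping libraries, and was called higher with upper-quartile scaling (log2 0.36) and with the GC trend removed (log2 0.48). The median was -0.05, and with the GC trend removed -0.43, while both other scalings of the libraries put it above 0, at 0.03 and 0.29.

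Hypoxia genes were lower in 22Rv1 for 12 of 22 members, all tested, and higher for 5, and 6 were 4-fold lower and 2 were 4-fold higher. The 4-fold shares were 27.3% lower and 9.09% higher, against 14.5% and 18.3% of all genes tested. HIF1A, the oxygen-regulated factor, had 81.9 and 93.3 CPM in 22Rv1, against 484 and 473 CPM in PC3 (log2 -2.45 ± 0.15), its relative EPAS1 had 4.23 and 3.64 CPM in 22Rv1 and 26.6 and 28.05 CPM in PC3, and the carbonic anhydrase CA9 had 0.103 and 0.0823 CPM in 22Rv1 and 26.8 and 29.3 CPM in PC3. The 2 higher members were ANGPTL4, a lipase inhibitor, at 34.3 and 21.5 CPM in 22Rv1 and 4.33 and 4.64 CPM in PC3 and NDUFA4L2, a mitochondrial complex subunit paralogue, at 154 and 85.95 CPM in 22Rv1 and 1.61 and 2.08 CPM in PC3. The list median was -0.60, and -0.23 with the GC trend removed.

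Sterol synthesis genes were mostly higher in 22Rv1, by small factors. Of 25, all tested, 16 were called higher and 5 lower, against 34.9% and 36.0% of all genes tested. The median log2 was 0.80, or 0.83 with the GC trend removed. At 4-fold 3 members (12%) were higher, fewer than the 18.3% of all genes tested. FDFT1, squalene synthase, had 1251 and 1327 CPM in 22Rv1, against 240.1 and 242 CPM in PC3 (log2 2.42 ± 0.12). TM7SF2, a sterol reductase, had 140.5 and 100.7 CPM in 22Rv1 and 13.7 and 15.1 CPM in PC3. Both were past 4-fold. SREBF2, the factor that drives the pathway, had 655 and 545 CPM in 22Rv1 and 198 and 208 CPM in PC3 (log2 1.56 ± 0.19). Lower in 22Rv1 were SQLE at 82.03 and 88.7 CPM in 22Rv1 and 128 and 135 CPM in PC3 and SC5D at 37.1 and 48.6 CPM in 22Rv1 and 149 and 142 CPM in PC3. The call of SQLE was lost with upper-quartile scaling (log2 -0.28).

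Fatty acid genes showed 11 called higher and 12 called lower among 30, all tested, against 34.9% and 36.0% of all genes tested. At 4-fold 4 members (13.3%) were higher and 2 (6.67%) lower, against 18.3% and 14.5% of all genes tested. FASN, fatty acid synthase, had 509 and 275 CPM in 22Rv1 and 284 and 350.4 CPM in PC3, with overlapping libraries, and ACACA, the carboxylase before it, had 274 and 294 CPM in 22Rv1 and 274 and 274 CPM in PC3. FASN was called lower with the GC trend removed (log2 -0.39), and ACACA was called higher with upper-quartile scaling (log2 0.40). SCD, the desaturase, had 2384 and 2542 CPM in 22Rv1 and 1624 and 1623 CPM in PC3 (log2 0.60 ± 0.11). ACSL4, which loads polyunsaturated acids, had 7.26 and 10.1 CPM in 22Rv1, against 161 and 160.3 CPM in PC3 (log2 -4.21 ± 0.19). FABP5, a fatty acid carrier, had 20.1 and 24.2 CPM in 22Rv1 and 154 and 152 CPM in PC3. ELOVL7, an elongase of long saturated acids, was higher, at 14.7 and 17.1 CPM in 22Rv1 and 0.463 and 0.494 CPM in PC3, as was ACSM3 at 27.4 and 33.7 CPM in 22Rv1 and 2.48 and 2.90 CPM in PC3.

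Respiratory chain genes were called higher in 22Rv1 more often than lower, by small factors. Of 55 nuclear subunits, all tested, 29 were called higher and 5 lower, 1 was 4-fold higher and 0 were 4-fold lower, and the median log2 was 0.54, or 0.51 with the GC trend removed. The member past 4-fold was NDUFA4, a subunit of complex IV, at 547 and 582 CPM in 22Rv1, against 119 and 115 CPM in PC3 (log2 2.27 ± 0.16). Without replicate 2 of 22Rv1 there were 2 such members, and with upper-quartile scaling 3. Succinate dehydrogenase did not follow: SDHD had 65.2 and 80.4 CPM in 22Rv1 and 162 and 158 CPM in PC3. SDHA had 222 and 189 CPM in 22Rv1 and 362 and 376 CPM in PC3. Both were called lower. Of 13 transcripts of the mitochondrial genome 8 were called higher and 0 lower, with a median log2 of 0.56, or 1.13 with the GC trend removed, led by MT-CO2 at 12330 and 14571 CPM in 22Rv1, against 3897 and 3821 CPM in PC3 (log2 1.80 ± 0.15) and MT-CO3 at 10089 and 11922 CPM in 22Rv1 and 3357 and 3395 CPM in PC3. MT-ND4 had 7639.7 and 7934 CPM in 22Rv1 and 8778 and 8976 CPM in PC3 and was not called, but was called higher with the GC trend removed (log2 0.36). Copies of mitochondrial sequence in the nuclear genome can share these reads.

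**Figure D4:**
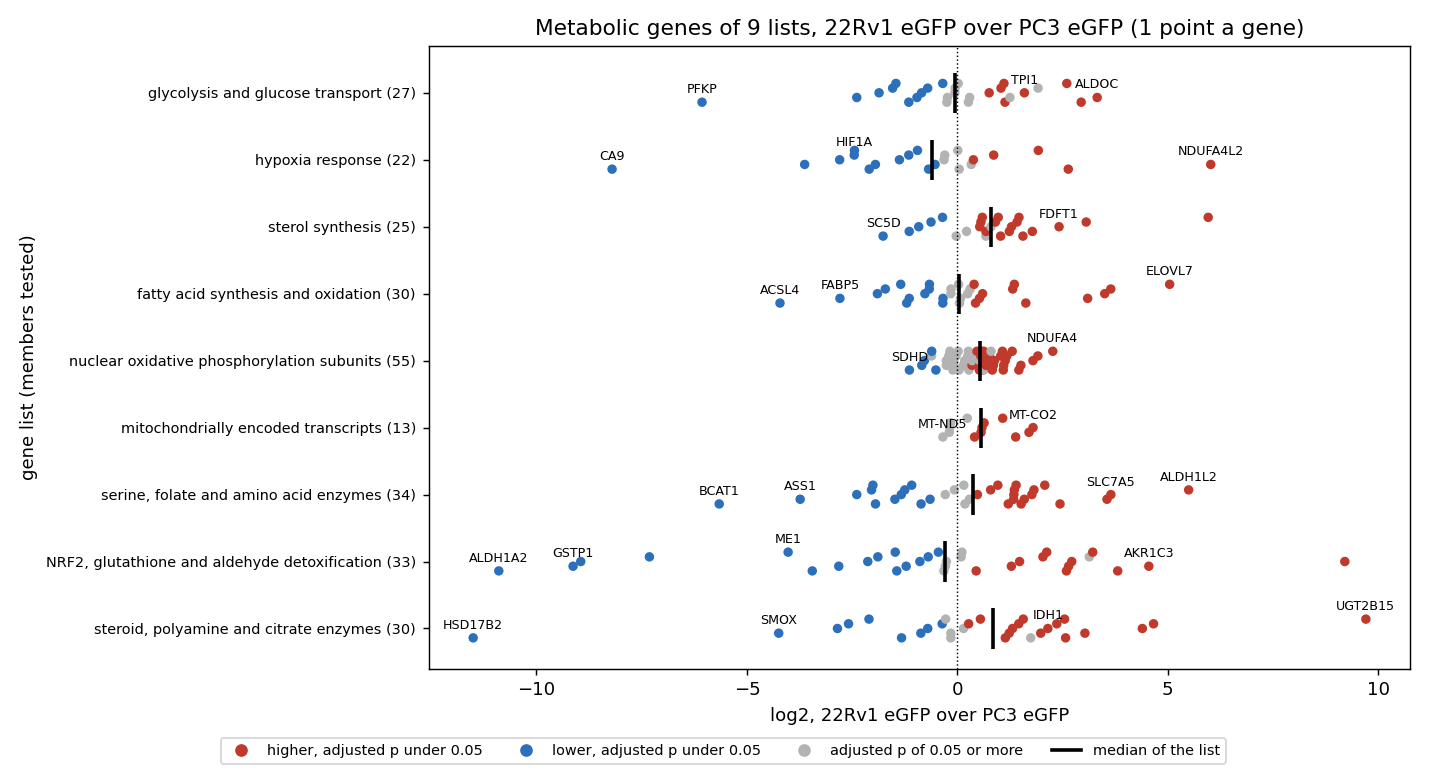
Log2 of 22Rv1 eGFP over PC3 eGFP for the tested members of 9 metabolic lists, 1 point a gene, red for higher and blue for lower at an adjusted p under 0.05, grey for the rest; genes with 0 counts in one line are drawn at their lower bound, and bars mark list medians. PFKP, CA9, GSTP1, ALDH1A2 and HSD17B2 lie far to the left and UGT2B15 far to the right, whereas oxidative phosphorylation subunits stay between -1.14 and 2.27.

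Amino acid carriers and enzymes of serine and folate metabolism differed in both directions, at shares close to those of all genes. Of members tested 17.6% were 4-fold higher and 14.7% 4-fold lower, against 18.3% and 14.5% of all genes tested. SLC7A5, the large neutral amino acid exchanger LAT1, had 4245 and 3045 CPM in 22Rv1, against 277 and 304 CPM in PC3 (log2 3.65 ± 0.30), and its heavy chain SLC3A2 had 1495 and 1267 CPM in 22Rv1 and 253 and 255 CPM in PC3 (log2 2.44 ± 0.18). SLC7A11, the cystine carrier that uses the same heavy chain, was lower at 48.9 and 52.1 CPM in 22Rv1 and 275 and 254 CPM in PC3. SHMT2, the mitochondrial serine hydroxymethyltransferase, had 1511 and 1239.9 CPM in 22Rv1 and 383 and 395 CPM in PC3. PHGDH, the first enzyme of serine synthesis, had 480.3 and 408 CPM in 22Rv1 and 171 and 176 CPM in PC3. ALDH1L2 had 130.1 and 145 CPM in 22Rv1 and 3.10 and 2.99 CPM in PC3. All 3 were called higher. In the other direction BCAT1, a branched-chain transaminase, had 4.37 and 4.26 CPM in 22Rv1, against 223 and 212 CPM in PC3 (log2 -5.66 ± 0.20) while its mitochondrial form BCAT2 had 123 and 92.3 CPM in 22Rv1 and 23.6 and 27.3 CPM in PC3. ASS1, of arginine synthesis, had 3.73 and 3.40 CPM in 22Rv1 and 45.6 and 49.3 CPM in PC3. Of 34 members, all tested, 17 were called higher and 12 lower, and 6 were 4-fold higher and 5 were 4-fold lower, or 3 lower without replicate 1 of 22Rv1 or with either other scaling, and 2 lower with the GC trend removed.

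Detoxification genes, many of them driven by the NRF2 factor, were far apart in both directions. Of members tested 27.3% were 4-fold higher and 24.2% 4-fold lower, against 18.3% and 14.5% of all genes tested. GSTP1, a glutathione transferase that is methylated and silent in most prostate tumours, had 0.103 and 0.165 CPM in 22Rv1, against 70.4 and 82.3 CPM in PC3 (log2 -9.13 ± 0.54). NQO1 had 25.7 and 28.6 CPM in 22Rv1 and 192 and 190.4 CPM in PC3. ME1, which makes NADPH, had 9.21 and 9.41 CPM in 22Rv1 and 151 and 151 CPM in PC3. TXNRD1 had 203 and 236 CPM in 22Rv1 and 963 and 951 CPM in PC3. All of these were called lower. ALDH1A3 had 0.164 and 0.329 CPM in 22Rv1 and 124 and 123 CPM in PC3. ALDH1A2 had 0.123 and 0.0412 CPM in 22Rv1 and 164 and 159 CPM in PC3. By contrast, ALDH1A1 was read mainly in 22Rv1 at 12.3 and 15.5 CPM in 22Rv1 and 0 and 0.0430 CPM in PC3. AKR1C3, which makes testosterone from weak androgens, had 175 and 192 CPM in 22Rv1, against 8.01 and 7.65 CPM in PC3 (log2 4.55 ± 0.16), with near-identical AKR1C relatives that may share its reads. GPX4, which reduces lipid peroxides, had 671 and 495 CPM in 22Rv1 and 82.1 and 94.7 CPM in PC3. Of 36 members 33 were tested, with 9 that were 4-fold higher and 8 that were 4-fold lower.

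Steroid, polyamine and citrate enzymes were called higher in 22Rv1 for 16 members and lower for 9. UGT2B15, which glucuronidates androgens, had 24.2 and 28.1 CPM in 22Rv1, against 0 CPM in both PC3 libraries and was at least 838-fold higher in 22Rv1, with close relatives that may share reads. HSD17B2, which inactivates testosterone, had 0 and 0.0206 CPM in 22Rv1, against 36.98 and 37.99 CPM in PC3. SLC25A1, the citrate carrier, had 235 and 185 CPM in 22Rv1 and 34.02 and 37.7 CPM in PC3. IDH1 had 559 and 649 CPM in 22Rv1 and 135 and 137 CPM in PC3. IDH2 had 109 and 94.1 CPM in 22Rv1 and 19.6 and 19.8 CPM in PC3. All 3 were called higher. SMOX, spermine oxidase, was lower at 0.944 and 0.391 CPM in 22Rv1 and 11.5 and 13.9 CPM in PC3. ODC1, the first enzyme of polyamine synthesis, had 481 and 525 CPM in 22Rv1 and 646 and 644 CPM in PC3, a difference that was not called with DESeq2 size factors, with upper-quartile scaling (log2 -0.02), or without replicate 1 of 22Rv1 or either PC3 library. Of 33 members 30 were tested, with 10 that were 4-fold higher and 5 that were 4-fold lower. These were 33.3% and 16.7% of members tested, against 18.3% and 14.5% of all genes tested.

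CTNNA1, which encodes alpha-catenin and which PC3 is known to have lost, was read there at a low level. At chromosome 5, 138610967 to 138935034, it had 457 and 473 CPM in 22Rv1, against 6.44 and 5.996 CPM in PC3 (log2 6.22 ± 0.14, edgeR adjusted p = 2.29e-11). It was not at 0 counts in PC3, and the counts do not show which exons were read.

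The neighbours of CTNNA1 differed in both directions. SIL1, 347 kb away by gene midpoints, had 24.96 and 20.9 CPM in 22Rv1 and 6.74 and 6.06 CPM in PC3, higher in 22Rv1. HSPA9, 208 kb away, had 406 and 473 CPM in 22Rv1 and 992 and 987 CPM in PC3, lower in 22Rv1. EGR1, whose level in PC3 was near 0 as given above, lies 306 kb from CTNNA1, with ETF1, 248 kb from CTNNA1, between them at 94.9 and 118 CPM in 22Rv1 and 347 and 340.4 CPM in PC3. Where genes overlap, reads cannot be assigned with certainty because the strand setting of the counting is not known.

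**Figure D5:**
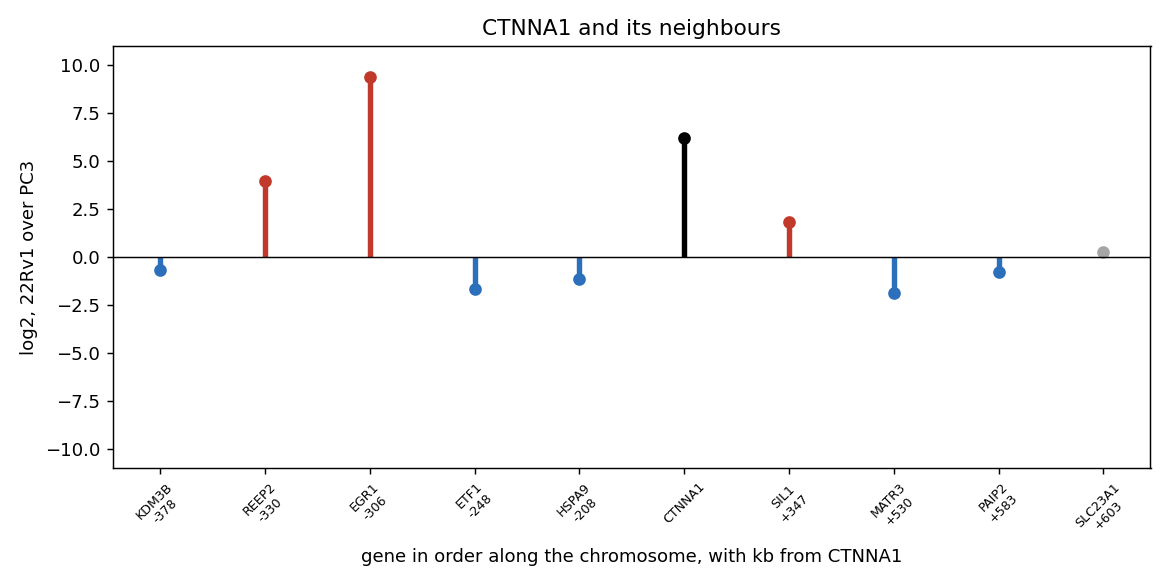
Log2 of 22Rv1 eGFP over PC3 eGFP for CTNNA1 (black) and its nearest protein-coding neighbours with a fitted value, in order along the chromosome with the distance between gene midpoints in kb; red is called higher, blue called lower and grey not called. EGR1 at 9.37 stands above CTNNA1, and ETF1 and HSPA9 lie below 0.

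The mismatch repair genes MSH6 and MSH3 were lower in 22Rv1, a line known for defective mismatch repair. MSH6 had 58.3 and 68.7 CPM in 22Rv1, against 223 and 212 CPM in PC3 (log2 -1.77 ± 0.14). MSH3, on another chromosome, had 1.62 and 2.29 CPM in 22Rv1 and 26.95 and 24.97 CPM in PC3 (log2 -3.73 ± 0.23). Among neighbours of MSH6, FBXO11 at 9.60 and 11.2 CPM in 22Rv1 and 37.04 and 36.5 CPM in PC3 and FOXN2 at 19.8 and 22.2 CPM in 22Rv1 and 56.5 and 52.5 CPM in PC3 were lower in 22Rv1 as well, whereas CALM2 had 278 and 343 CPM in 22Rv1 and 290.4 and 289 CPM in PC3 and was not called, but was called higher with the GC trend removed (log2 0.88).

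Of other tumour suppressors, more were called lower than higher in 22Rv1. Of 38 members of this list, all tested, 21 were called lower and 10 higher, and 8 were 4-fold lower and 4 were 4-fold higher. The 4-fold shares were 21.1% lower and 10.5% higher, against 14.5% and 18.3% of all genes tested. The median log2 was -0.60, or -0.46 with the GC trend removed. With upper-quartile scaling 4 were 4-fold lower, as many as higher, and with the GC trend removed 3 were 4-fold lower and 3 were 4-fold higher. BRCA2 had 12.2 and 13.6 CPM in 22Rv1 and 64.8 and 62.4 CPM in PC3 (log2 -2.30 ± 0.20). ATM had 32.1 and 37.1 CPM in 22Rv1 and 166 and 159 CPM in PC3. CHD1, a remodeller often deleted in prostate tumours, had 26.9 and 30.2 CPM in 22Rv1 and 198 and 194 CPM in PC3. These genes of DNA repair and chromatin were called lower. RB1 had 46.6 and 55.1 CPM in 22Rv1 and 136 and 141 CPM in PC3. CDKN2B had 2.65 and 2.45 CPM in 22Rv1 and 39.01 and 38.7 CPM in PC3. CDKN2A had 34.8 and 33.7 CPM in 22Rv1 and 82.3 and 84.5 CPM in PC3. CDKN1B, which encodes p27, was higher, at 149 and 151 CPM in 22Rv1 and 53.3 and 52.8 CPM in PC3. FHIT, at a fragile site, was 4-fold higher, at 15.6 and 16.8 CPM in 22Rv1, against 0.342 and 0.193 CPM in PC3. Its neighbours, looked at after these values were seen, went both ways. PTPRG at 13.9 and 13.7 CPM in 22Rv1 and 1.47 and 1.27 CPM in PC3 and C3orf14 at 20.6 and 22.9 CPM in 22Rv1 and 0.745 and 0.322 CPM in PC3 were low in PC3 as well, whereas ACOX2 at 0.718 and 0.576 CPM in 22Rv1 and 57.4 and 60.4 CPM in PC3, FAM107A at 0.0615 and 0 CPM in 22Rv1 and 14.6 and 15.04 CPM in PC3 and THOC7 at 20.02 and 23.6 CPM in 22Rv1 and 60.1 and 60.97 CPM in PC3 were lower in 22Rv1. SMAD4, given above, BRCA1 at 71.8 and 78.03 CPM in 22Rv1 and 61.6 and 64.6 CPM in PC3 and NCOR1 at 138 and 153 CPM in 22Rv1 and 152 and 157 CPM in PC3 were not called. With the GC trend removed BRCA1 and NCOR1 were called higher (log2 0.87 and 0.31), BRCA1 also with upper-quartile scaling (log2 0.59).

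The line difference was seen again for most genes in the other constructs. Of the 7645 genes 4-fold apart with eGFP, 7523 had the same sign between the ETV4WT libraries of the lines and 7442 between the ETV4AAA libraries, n = 2 libraries in each group. CDH1 had a log2 of 4.88 with ETV4WT and 5.69 with ETV4AAA, VIM -6.14 and -5.62, and MET -5.85 and -7.19. CTNNA1 had 4.02 and 6.03 on the same scale. Some genes changed more. Among the 10 lowest in 22Rv1, KRT75 had -9.71 with ETV4WT and -0.34 with ETV4AAA, HAPLN1 -10.4 and -3.32, and FCGR2A -13.2 and -4.95. The others of the 10 stayed at or under -9.91 with ETV4AAA. Of 18 ERK output members 4-fold apart, 17 kept their sign with ETV4WT and 13 with ETV4AAA. Of 16 basal members, 16 and 13 did. ETV4, which the constructs supply, had 1.41 with ETV4WT and 1.01 with ETV4AAA, the opposite direction to the eGFP libraries.

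Other cell types were checked by their markers. Of 18 immune cell genes 8 passed the filter, 4 of them 4-fold higher in 22Rv1 and 1 was 4-fold lower, and the list summed to 8.62 and 6.9996 CPM in 22Rv1 and 1.07 and 1.07 CPM in PC3. The T cell genes CD3D, CD3E and CD3G and the B cell gene MS4A1 were at 0 in all 4 libraries, and CD4 had 3.55 and 2.59 CPM in 22Rv1 and 0 CPM in both PC3 libraries. Of 18 stromal and endothelial genes 14 passed, with 7 that were 4-fold lower in 22Rv1 and 1 that was 4-fold higher, and the list summed to 10.5 and 11.7 CPM in 22Rv1 and 418 and 424 CPM in PC3. COL1A2, a chain of type I collagen, made up most of the PC3 sum at 0.0615 and 0 CPM in 22Rv1, against 352 and 361 CPM in PC3. PECAM1, an endothelial adhesion molecule, had 0 CPM in both 22Rv1 libraries and 13.6 and 12.4 CPM in PC3, whereas the endothelial cadherin CDH5 was at 0 in all 4. Other immune members past 4-fold included CD8A and HBA1, higher in 22Rv1, and FCGR3A, lower, each below 2 CPM. Of the immune genes 2 to 3 were 4-fold lower without replicate 1 or 2 of 22Rv1 or replicate 1 of PC3, and 2 stromal genes were 4-fold higher without replicate 1 of PC3. Whether other cells contributed to these differences was not tested.

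By chromosome, the median log2 of expressed protein-coding genes was highest on chromosome 22, at 0.84 over 299 genes, and on chromosome 19, at 0.43 over 970 genes. It was lowest on chromosome 18, at -0.93 over 194 genes, on chromosome 3, at -0.84 over 759 genes, and on chromosome 14, at -0.81 over 422 genes. With the GC trend removed the medians were 0.47 on chromosome 22, 0.01 on chromosome 19, -0.54 on chromosome 18, -0.46 on chromosome 3 and -0.63 on chromosome 14, each closer to 0. The highest medians were then 0.48 on chromosomes 12 and 7, and chromosome 21, at -0.54, was among the lowest. Cytosolic ribosomal protein genes were higher in 22Rv1 for 32 of 40 members, with 0 called lower, 1 that was 4-fold higher and a median log2 of 1.02, or 0.88 with the GC trend removed. RPLP0, of the ribosomal stalk, had 5799.9 and 5236 CPM in 22Rv1 and 1561 and 1627 CPM in PC3 (log2 1.79 ± 0.19). The 4-fold higher member was RPS19. The 4-fold count was 0 without replicate 1 of 22Rv1, 3 without replicate 2 of 22Rv1 and 5 with upper-quartile scaling. Ribosomal protein genes have many pseudogenes that can share their reads.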

How the data were processed

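RNA was sequenced from eGFP-sorted 22Rv1 and PC3 cells, 2 libraries per line and construct. The values the authors deposited are raw counts per gene, whole numbers for 58302 gene IDs in 12 libraries. The submitters' processing notes name FastQC 0.11.9, STAR 2.5.3a and the build GRCh38. Not given in the sources used here are the counting program, whether it used strand, the release of the annotation and how reads with several mapping places were handled. Gene names and positions were taken from GENCODE 29 (GRCh38), which matched 99.55% of the IDs. Depth is given at the start of the results, and bounds and intervals cover counting error only.

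Groups were read from the labels. The 12 libraries were fitted with edgeR 4.0.16 (R 4.3.3), with TMM scaling, filterByExpr by group, 1 mean per group and a quasi-likelihood test of 22Rv1 eGFP against PC3 eGFP. The biological coefficient of variation was 0.1495 over 6 residual degrees of freedom. P-values were adjusted by Benjamini-Hochberg over 23238 genes. CPM are counts per 1000000 of the TMM-scaled library total, and values after ± are standard errors. A gene with 0 counts in a line was set to a floor of 3 counts over both its libraries, so its fold is a lower bound. With 2 libraries per group an exact permutation test could not go below p = 0.333, and none is used.

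The members and lists were chosen with earlier results of these data known. Named genes are the 10 largest rises and falls, key members of each list, and up to 6 members called at 4-fold and up to 3 with the smallest change, plus known losses and their neighbours; a selection is printed. The listed alternatives were DESeq2 1.42.0, limma 3.58.1 (voom), other scalings, other filters, the eGFP libraries alone, a replicate block and each library left out. GC correction was added after seeing the data. Promoter sequences are RefSeq's (GRCh38.p14). Genes of chromosome Y and some list members, which stay in the list counts, are not reported here.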

Additional observations from a re-analysis of the deposited data

How the results depend on the processing

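The number of genes called ran from 13214 with a floor of 1 CPM in 2 libraries to 17712 without a low-count filter, against 16482. Over 15 alternatives, 3771 of 3896 values of 260 genes named in the text kept their direction and their side of the threshold. Of the others 39 lost the call and 48 gained one, 2 and 14 of them with a change of sign, and 38 changed sign with no change of call. Leaving out 1 library ended the call of EGFR, EPCAM, KRT19, ODC1, STAT2 and TP63, and the replicate block gave a call to KRT18. Calls that other scalings or the GC trend made or ended stand beside each gene. Of 1020 counts of 4-fold members over 34 lists, 51 moved by more than 1.5 times. The causes were not tested. Replicate numbers did not pair the lines, since deviations of same-numbered libraries correlated at -0.25 over genes. The replicate block called 16803 genes and the crossed numbers as a block 16309. Leaving out each library in turn gave 14659 to 15467 called genes. With a floor of 3 counts per library in place of 3 over the group, the lower bound of KLK3 became 323-fold and that of CDH11 3845.5-fold. Depth limits genes at a few counts. With 2 libraries per line, whose variance in 22Rv1 was 31.0 times that of counting error, small differences moved with scaling and GC content.

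For amino acid genes 4-fold lower in 22Rv1, the count of 5 became 3 with DESeq2 size factors, upper-quartile scaling, no low-count filter, a floor of 1 CPM in 2 libraries, DESeq2's Wald test and the 4 eGFP libraries alone, 2 with the GC trend removed, with or without the replicate block and 3 to 5 with each library left out. For ribosomal genes 4-fold higher in 22Rv1, the count of 1 became 2 with DESeq2 size factors, no low-count filter, a floor of 1 CPM in 2 libraries and DESeq2's Wald test, 5 with upper-quartile scaling and 0 to 3 with each library left out. For oxidative phosphorylation genes 4-fold higher in 22Rv1, the count of 1 became 3 with upper-quartile scaling, 2 with a floor of 1 CPM in 2 libraries, the GC trend removed, with or without the replicate block and 1 to 2 with each library left out. For mitochondrially encoded genes 4-fold higher in 22Rv1, the count of 0 became 2 with upper-quartile scaling and 1 with the GC trend removed, with or without the replicate block. For known losses 4-fold lower in 22Rv1, the count of 8 became 4 with upper-quartile scaling and 3 with the GC trend removed, with or without the replicate block. For stromal genes 4-fold higher in 22Rv1, the count of 1 became 2 with upper-quartile scaling, 0 with a floor of 1 CPM in 2 libraries and 1 to 2 with each library left out. For immune genes 4-fold lower in 22Rv1, the count of 1 became 2 with no low-count filter, the GC trend removed, with or without the replicate block, 0 with a floor of 1 CPM in 2 libraries and the 4 eGFP libraries alone and 1 to 3 with each library left out. For liver and gut genes 4-fold lower in 22Rv1, the count of 5 became 3 with a floor of 1 CPM in 2 libraries and the 4 eGFP libraries alone and 3 to 5 with each library left out. For NF-kB genes 4-fold lower in 22Rv1, the count of 11 became 7 with a floor of 1 CPM in 2 libraries. For basal genes 4-fold higher in 22Rv1, the count of 2 became 1 with limma-voom, the replicate block, the GC trend removed, with or without the replicate block and 1 to 2 with each library left out. For Notch genes 4-fold higher in 22Rv1, the count of 5 became 3 to 5 with each library left out. For PI3K genes 4-fold higher in 22Rv1, the count of 2 became 1 with the GC trend removed, with or without the replicate block.

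Sign changes touched genes with a log2 close to 0 and KRT5, which had 2 counts in all. FN1, KRT18 and FASN, further from 0, changed sign with the GC trend removed, and FASN also without replicate 1 of 22Rv1. On the log2 scale the values were these. ACACA, at 0.054, took 0.40 with upper-quartile scaling and -0.0079 to 0.096 with each library left out. AKT1, at -0.22, took 0.12 with upper-quartile scaling, -0.84 with the GC trend removed and -0.51 to 0.0047 with each library left out. CALM2, at 0.10, took 0.88 with the GC trend removed and -0.064 to 0.23 with each library left out. EHF, at -0.015, took 0.061 with DESeq2 size factors and DESeq2's Wald test, 0.33 with upper-quartile scaling, 0.063 with no low-count filter, 0.079 with a floor of 1 CPM in 2 libraries, 0.036 with the 4 eGFP libraries alone, 0.55 with the GC trend removed, with or without the replicate block and -0.15 to 0.091 with each library left out. FASN, at 0.31, took -0.39 with the GC trend removed, -0.40 with the GC trend removed and the replicate block and -0.21 to 0.68 with each library left out. FN1, at -0.47, took 0.11 with the GC trend removed, with or without the replicate block. HNF4G, at -0.030, took 0.046 with DESeq2 size factors and DESeq2's Wald test, 0.31 with upper-quartile scaling, 0.048 with no low-count filter, 0.064 with a floor of 1 CPM in 2 libraries, 0.022 with the 4 eGFP libraries alone, 0.73 with the GC trend removed, with or without the replicate block and -0.13 to 0.052 with each library left out. HOXB13, at 0.12, took -0.27 with the GC trend removed, with or without the replicate block, 0.46 with upper-quartile scaling and -0.026 to 0.23 with each library left out. KRT18, at 0.42, took -0.026 with the GC trend removed, -0.028 with the GC trend removed and the replicate block and 0.76 with upper-quartile scaling. KRT5, at -3.15, took -4.11 to 0 with each library left out. MT-ND4, at -0.19, took 0.15 with upper-quartile scaling and 0.36 with the GC trend removed, with or without the replicate block. NCOR1, at -0.084, took 0.26 with upper-quartile scaling, 0.010 with a floor of 1 CPM in 2 libraries and 0.31 with the GC trend removed, with or without the replicate block. PGK1, at 0.023, took 0.48 with the GC trend removed, 0.36 with upper-quartile scaling and -0.018 to 0.047 with each library left out. SMAD2, at -0.065, took 0.011 with DESeq2 size factors and DESeq2's Wald test, 0.28 with upper-quartile scaling, 0.013 with no low-count filter, 0.029 with a floor of 1 CPM in 2 libraries, 0.66 with the GC trend removed, with or without the replicate block and -0.17 to 0.018 with each library left out. SMAD4, at 0.046, took 0.74 with the GC trend removed, 0.39 with upper-quartile scaling and -0.035 to 0.11 with each library left out. SOX4, at -0.11, took 0.23 with upper-quartile scaling. The medians of chromosomes 1, 9 and 16 became 0.066, 0.034 and 0.024 with DESeq2 size factors.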

Other observations

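Some neighbouring genes that were read in 22Rv1 and close to absent in PC3 lay in runs. Among all genes tested, 1084 had 0 counts in both PC3 libraries and 786 in both 22Rv1 libraries, with 87 at 0 in both lines. The criterion of a run, chosen after seeing the data, was at least 4 consecutive expressed protein-coding genes with at least 1 CPM in 22Rv1 and at most 3 counts over both PC3 libraries. How many genes met these limits singly in each line was not counted. The search gave 5 runs, and the same search with the lines exchanged gave 0. The longest held 11 zinc finger genes on chromosome 19, 21804949 to 23147219 (GRCh38), from ZNF43 to ZNF730, which together had 8 counts in PC3 and mean levels of 1.55 to 46.9 CPM in 22Rv1. A second group of zinc finger genes, 4 from ZNF93 to ZNF66 at 19900913 to 20807322 on the same chromosome, had 2 counts in PC3. The kallikrein run held 7 genes from KLK1 to KLK13 at 50819148 to 51065114 and had 1 count in PC3.

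The other runs were 4 genes on chromosome 2, 218959655 to 219041527, from CDK5R2 to CFAP65, with 2 counts in PC3, and 4 protocadherin genes on chromosome 5, 141150022 to 141186399, from PCDHB6 to PCDHB16, with 3 counts in PC3. Protocadherins are neuronal adhesion proteins encoded in tandem clusters. Zinc finger and protocadherin genes have close relatives that can share reads. Whether DNA loss or silencing goes with these runs was not tested.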
